A study of Mus musculus with 35 samples.

Results

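The genes described here are 36 transcription factors that mark regions of the hypothalamus and its neighbours in the mouse brain. They were taken by name from a fixed list and looked up by gene symbol in every count table. The rule uses no measured value, but the list was drawn up with earlier results of these data known. All 36 were found among the 49568 gene names of the tables, and all 36 were among the 18063 genes with enough counts to be tested. PolyA RNA from the hypothalamus of male B6/J mice was sequenced in 35 libraries, with tissue taken at Zeitgeber time 16 (hours after lights-on). The libraries were 10 of controls with free access to food, 10 of controls fasted for 16 h, 5 of fed and 5 of likewise fasted mice labelled PER2-S662D, and 5 of fasted mice labelled Per2 knockout. Libraries of a group are numbered as replicates in the labels, which do not name the mice. PER2-S662D is a form of the clock protein PER2 in which a phosphorylated serine is replaced by aspartate. The labels give neither the age of the mice nor how each allele was made, and each tissue block was cut by stereotaxic coordinates, so that a block can hold tissue next to the hypothalamus.

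The hypothalamus is built from small nuclei, and each nucleus is laid down and maintained by its own combination of homeodomain, forkhead, T-box, POU and zinc finger proteins. Many of these proteins stay on in adult neurons, where their transcripts serve as markers of a nucleus. In RNA from a dissected block, their levels therefore describe which regions the block contained as well as how strongly each region's cells express the gene. In such bulk samples fewer cells of a type and less RNA per cell cannot be told apart.

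The members fall into 6 groups by place. The ventromedial group (3 genes) holds Nr5a1, the nuclear receptor that specifies the ventromedial nucleus, with Fezf1 and Sox14. The paraventricular group (4 genes) holds Sim1 and its relative Sim2, the homeodomain gene Otp, and Pou3f2, a POU factor of vasopressin, oxytocin and corticotropin-releasing hormone neurons. The tuberal group (7 genes) holds Nkx2-1 and Nkx2-4, which pattern the ventral hypothalamus, Tbx3, Isl1 and Bsx of arcuate neurons, and the neighbouring genes Hmx2 and Hmx3. The forebrain group (9 genes) holds the GABA lineage genes Dlx1, Dlx2, Dlx5 and Dlx6, the LIM homeodomain genes Lhx6 of GABA neurons and Lhx8 of basal forebrain cholinergic neurons, and Six3, Vax1 and Meis2. The caudal group (9 genes) holds Lhx5, Lhx9, Foxb1 and Barhl1 of the mammillary and neighbouring region, Foxa1, Foxa2 and Lmx1a, which midbrain dopamine neurons also use, and the Iroquois genes Irx3 and Irx5. The last group (4 genes) holds Tcf7l2 and Lef1, DNA-binding partners of beta-catenin that are strong in the thalamus, with Zic1 and Foxp2, which many brain regions express.

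The promoters of 6 members are printed because these genes form the 3 pairs whose levels moved together between libraries under every setting examined. Each sequence runs 5′ to 3′ on the gene's own strand from 250 bases before to 50 bases after a RefSeq transcription start (build GRCm38.p6), and capitals mark the E-box CACGTG, the element that circadian activators bind. Dlx1 lies at chr2:71529195-71529494 (plus strand), Dlx2 at chr2:71546705-71547004 (minus), Lhx6 at chr2:36105359-36105658 (minus), Lhx8 at chr3:154330511-154330810 (minus), Tcf7l2 at chr19:55741560-55741859 (plus) and Lef1 at chr3:131110073-131110372 (plus).
Dlx1: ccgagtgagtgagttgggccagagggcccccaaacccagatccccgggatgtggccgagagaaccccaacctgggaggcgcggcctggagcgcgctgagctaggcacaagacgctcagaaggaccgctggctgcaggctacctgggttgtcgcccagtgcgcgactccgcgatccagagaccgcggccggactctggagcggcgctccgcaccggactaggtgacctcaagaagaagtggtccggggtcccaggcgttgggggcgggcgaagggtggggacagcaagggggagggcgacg
Dlx2: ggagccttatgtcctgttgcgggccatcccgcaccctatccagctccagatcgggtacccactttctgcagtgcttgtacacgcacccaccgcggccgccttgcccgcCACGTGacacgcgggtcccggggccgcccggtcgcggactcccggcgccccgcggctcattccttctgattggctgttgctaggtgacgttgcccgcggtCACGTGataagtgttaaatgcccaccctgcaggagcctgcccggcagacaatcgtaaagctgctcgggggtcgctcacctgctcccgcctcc
Lhx6: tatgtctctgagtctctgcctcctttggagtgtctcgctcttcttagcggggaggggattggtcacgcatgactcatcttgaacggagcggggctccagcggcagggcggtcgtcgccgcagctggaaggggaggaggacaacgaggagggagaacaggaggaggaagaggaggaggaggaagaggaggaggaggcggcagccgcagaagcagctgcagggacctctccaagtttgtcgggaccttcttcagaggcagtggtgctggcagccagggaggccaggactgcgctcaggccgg
Lhx8: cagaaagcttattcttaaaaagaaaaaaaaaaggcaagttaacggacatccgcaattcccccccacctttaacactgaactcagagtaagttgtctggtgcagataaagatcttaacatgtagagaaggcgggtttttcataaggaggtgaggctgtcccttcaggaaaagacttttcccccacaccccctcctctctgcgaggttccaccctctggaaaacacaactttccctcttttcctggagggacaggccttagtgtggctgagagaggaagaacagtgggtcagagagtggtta
Tcf7l2: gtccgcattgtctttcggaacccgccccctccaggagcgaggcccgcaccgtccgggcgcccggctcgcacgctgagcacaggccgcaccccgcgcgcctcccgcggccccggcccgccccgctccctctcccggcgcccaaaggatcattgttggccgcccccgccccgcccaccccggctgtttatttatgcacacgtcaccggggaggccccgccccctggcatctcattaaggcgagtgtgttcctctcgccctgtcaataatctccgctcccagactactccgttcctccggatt
Lef1: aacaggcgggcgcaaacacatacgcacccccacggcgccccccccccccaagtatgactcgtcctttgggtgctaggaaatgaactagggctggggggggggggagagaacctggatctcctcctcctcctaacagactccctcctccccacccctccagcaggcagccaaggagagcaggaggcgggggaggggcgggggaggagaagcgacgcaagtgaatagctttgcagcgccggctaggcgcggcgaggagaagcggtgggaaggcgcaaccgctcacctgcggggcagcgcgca

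Of these windows only that of Dlx2 held the E-box, in 2 copies. Lef1 had it at 1 of its 4 listed starts, which is not the start shown. A promoter was matched for 27 of the 36 members by symbol, and none was matched for Foxb1, Irx5, Lhx5, Nr5a1, Sim2, Tbx3, Dlx6, Foxp2 and Dlx5. Counting every listed start and both strands, CACGTG was present for 3 of the 27 (Dlx2, Lef1 and Zic1; 11.1%) and for 8.09% of all genes with a promoter. The homeodomain core TAATTA was present for Barhl1 alone among the 27 (3.70%, against 6.13% of all genes). The TCF/LEF motif CTTTGAT was present for Foxa2, Pou3f2 and Vax1 (11.1%, against 4.29%), and the steroidogenic factor motif TCAAGGTCA for 0 of 27 (against 0.467%). These are matches of letters in a window and describe no binding. The median GC content of the members' promoters was 59.3%, against 52.7% of all promoters.

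Total counts were 17959586 to 37027342 per library, and the deepest libraries were S662D. Library numbers in the file headers fall into separate ranges for control replicates 1 to 5, control replicates 6 to 10, the labelled knockouts and the S662D mice, and S662D replicates 2, 3 and 4 of either feeding state (6 of 10 libraries) have a number with an added last digit, whose meaning is not given. Genotype and library range therefore cannot be told apart for S662D and for the labelled knockouts. Per2 itself stood at 28.2 to 33.4 CPM (counts per 1000000 of the scaled library size) in the fasted libraries labelled Per2 knockout and at 26.1 to 33.1 CPM in fasted controls, so the total count of the gene does not separate those labels, although counts summed over a whole gene need not show a small deletion. In S662D mice Per2 was lower, at 18.7 ± 2.0 CPM fed and 19.9 ± 2.4 CPM fasted (SD, n = 5 each) against 28.2 ± 1.9 and 29.0 ± 2.4 CPM in controls (SD, n = 10 each; log2 difference -0.59 and -0.55, both called by edgeR). Markers of the labelled tissue were present in every library: the 18 hypothalamic peptide genes summed to 704 to 1007 CPM, led by Avp, Oxt and Pmch. The 9 thalamus markers, among them Slc17a6 and Calb2, which hypothalamic neurons also express, summed to 1462 to 2007 CPM. Midbrain markers, led by Slc6a3, Ddc and Th, summed to 79.6 to 292 CPM, and whether these counts came from midbrain tissue was not tested. Striatal markers summed to 191 to 319 CPM, cortical and hippocampal markers to 259 to 415 CPM, and pituitary markers to 1.61 to 6.39 CPM. Choroid plexus markers ranged from 18.9 to 1556 CPM and passed 200 CPM in 8 libraries spread over all 5 groups.

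Levels of the factors differed widely per length. Zic1, a zinc finger gene, was the highest at 31.8 CPM per kb of exon as a mean of 35 libraries, followed by Tcf7l2 at 19.8 and Otp at 9.58. The lowest were Foxa2 at 0.532, Lhx8 at 0.439 and Sim2 at 0.364 CPM per kb. Within the paraventricular group Otp stood far above Pou3f2 at 4.72 and Sim1 at 1.05 CPM per kb. In the tuberal group Nkx2-1 (4.77) and Isl1 (3.44) were highest and Hmx2 (0.550) lowest, and in the ventromedial group Fezf1 (4.34) was above Nr5a1 (1.66) and Sox14 (0.967). Among the forebrain genes Six3 (6.06) and Dlx1 (4.61) led and Lhx8 was lowest. Among the caudal genes Lhx5 led at 3.79, ahead of Irx3 (3.14) and Foxb1 (3.03). Foxb1 and Lef1 each share at least 10% of their exon bases with another annotated gene (14.0% with B230323A14Rik and 13.7% with Gm43352), and counting used no strand option, so their values may hold reads of those genes.

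**Figure D1:**
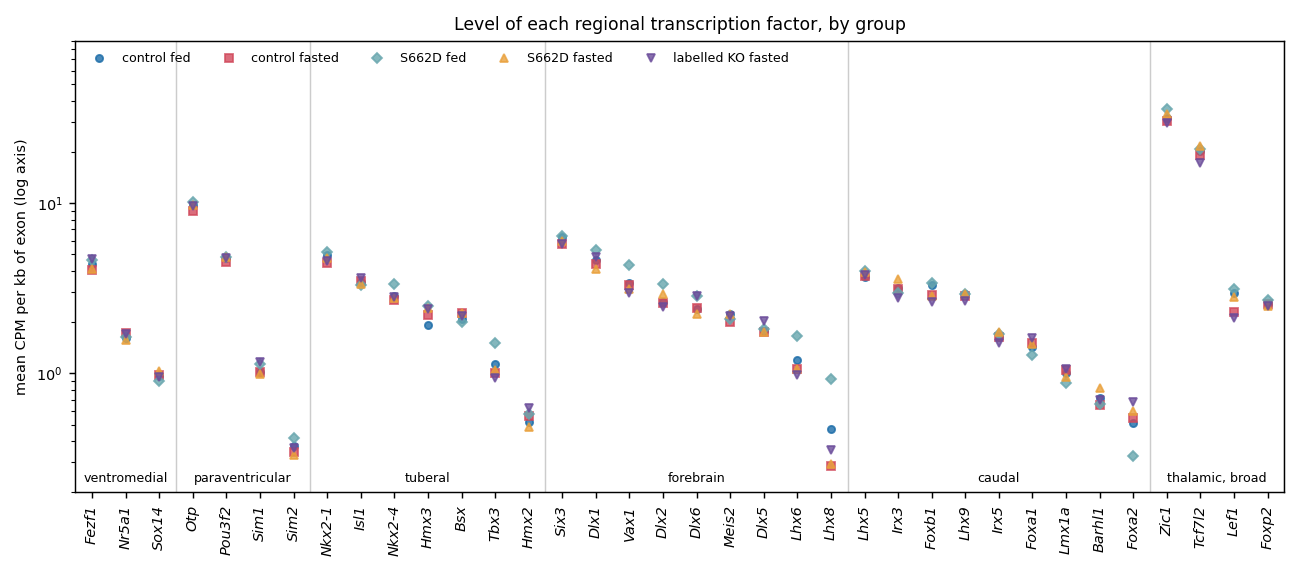
Mean level of each factor in the 5 groups, in CPM per kb of exon on a log axis, with genes ordered by group and by level. Markers of the 5 groups lie close together for most genes, with Zic1 (31.8) and Tcf7l2 (19.8) at the top, and they are spread most widely for Lhx8 and Foxa2.

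For most of these factors the spread between libraries of one group was above that of the median gene. The factors were not matched with other genes for level, and the part of level in this difference was not tested. The biological coefficient of variation, edgeR's estimate of the relative spread between replicates beyond counting noise, had a median of 0.130 over the 36 members and of 0.0907 over all tested genes. It was above that of the median gene for 31 of the 36. Lhx8 varied most (0.585), ahead of Lhx6 (0.328), Foxa2 (0.292) and Sox14 (0.222). Pou3f2 varied least (0.0586), followed by Foxp2 (0.0770), Tcf7l2 (0.0816), Lhx9 (0.0849) and Foxb1 (0.0872).

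Several members kept close group means. Pou3f2 stood at 26.7 ± 1.4 CPM in fed and 25.3 ± 1.5 CPM in fasted controls (SD, n = 10 each), at 26.8 ± 1.1 and 26.9 ± 1.8 CPM in fed and fasted S662D mice and at 26.7 ± 2.5 CPM in the labelled knockouts (n = 5 each). Lhx9, which hypocretin neurons and the thalamus express, stood at 27.9 ± 1.7, 27.2 ± 2.1, 27.8 ± 3.8, 27.7 ± 3.3 and 25.4 ± 3.0 CPM in the same order of groups. Isl1, a LIM homeodomain factor that Pomc expression needs, stood at 13.6 ± 1.2, 13.7 ± 1.8, 13.1 ± 1.7, 13.2 ± 1.8 and 14.3 ± 1.0 CPM. Nr5a1 stood at 6.83 ± 0.70, 7.29 ± 0.91, 6.93 ± 1.06, 6.69 ± 0.83 and 7.26 ± 0.60 CPM. Low genes had wider relative spreads: Sox14 stood at 1.99 ± 0.67, 2.03 ± 0.63, 1.85 ± 0.17, 2.14 ± 0.41 and 1.96 ± 0.65 CPM, and Hmx3 at 2.81 ± 0.75, 3.21 ± 0.79, 3.60 ± 1.29, 3.53 ± 0.52 and 3.50 ± 0.83 CPM. For each of these 6 genes the ranges of the groups overlapped, and none was called in any of the 6 comparisons.

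On fasting, the number of factors called lay near the share of all genes and is not a result about the members. In control mice edgeR's quasi-likelihood test called 1 of 36 members (2.78%) at an adjusted p below 0.05. Of all genes tested, 3.88% were called in that comparison. A gene that was not called is not thereby unchanged. The called gene was Lef1, a Wnt pathway factor. Fed controls held 22.3 to 30.9 CPM of Lef1 (median 25.2), and fasted controls held 15.1 to 26.8 CPM (median 20.0). The 2 groups overlapped, with 1 of 10 fasted libraries above the fed median. Lef1 fell by 0.36 on the log2 scale (SE 0.084, adjusted p = 0.00549 by edgeR). Within control replicates 1 to 5 its means were 25.0 ± 2.2 CPM fed and 20.1 ± 2.1 CPM fasted (SD, n = 5 each), a log2 change of -0.32 with an adjusted p of 0.0469. Within replicates 6 to 10 they were 27.0 ± 3.3 and 20.3 ± 4.8 CPM, a log2 change of -0.41 that did not pass the edgeR threshold (adjusted p = 0.106). The thalamus markers, which share that region with Lef1, summed to 1478 to 1742 CPM in fed and 1513 to 1710 CPM in fasted controls, and 1 of these 9 genes was called, Rgs16, which fell by 0.35. Their part in the Lef1 change was not tested.

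The other 35 members did not pass the threshold on fasting in controls. Their log2 changes ran from -0.72 for Lhx8 to 0.19 for Hmx3. The median over all 36 members was -0.037, against 0.0023 over all genes, with 23 values below 0 and 13 above. An unadjusted p below 0.05 was found for 4 members, all lower (Lef1, Tbx3, Foxb1 and Nkx2-1), which is 11.1% of the list against 13.3% of all genes. Foxb1, a forkhead gene of the mammillary body, stood at 9.80 ± 0.83 CPM fed and 8.62 ± 1.12 CPM fasted (SD, n = 10 each; log2 change -0.18, adjusted p = 0.183 by edgeR). Nkx2-1 stood at 14.1 ± 1.8 and 12.7 ± 1.7 CPM (log2 change -0.16, adjusted p = 0.340).

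In S662D mice edgeR also called 1 of 36 members on fasting (2.78%), against 2.64% of all genes. This was Tbx3, a T-box factor that arcuate neurons need to keep their identity. The 5 fed S662D libraries held 9.51, 9.55, 11.2, 10.0 and 9.91 CPM of Tbx3 (replicates 1 to 5), and the 5 fasted ones 7.05, 6.42, 6.47, 7.98 and 6.91 CPM. Every fed library lay above every fasted one. Tbx3 fell by 0.53 on the log2 scale (SE 0.11, adjusted p = 0.00190 by edgeR), to 0.695 of its fed level. Fasted controls, at 4.57 to 7.83 CPM, overlapped with fed controls at 5.40 to 9.87 CPM, with a log2 change of -0.17 (SE 0.082, adjusted p = 0.333). The difference between the 2 fasting responses was itself tested as an interaction and did not pass (log2 difference -0.35, SE 0.14, adjusted p = 0.762). Groups that do not overlap were found for 2 members in this comparison, Tbx3 and Vax1, and for 3.30% of all genes.

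The forebrain genes mostly stood lower in fasted than in fed S662D mice, without passing the threshold. Of the 9 genes, 8 had a negative log2 change, with a median of -0.35, and 5 had an unadjusted p below 0.05. Over all 36 members 9 did, or 25.0% against 14.3% of all genes. On fasting in controls 8 of the 9 forebrain genes were negative too, with a median of -0.087. The forebrain genes vary together between libraries, so their signs are not separate observations. Lhx8, which marks cholinergic neurons of the basal forebrain, stood at 0.61, 2.43, 2.76, 5.38 and 0.51 CPM in the fed S662D libraries and at 0.95, 0.31, 0.98, 0.47 and 0.98 CPM in the fasted ones. The 3 high fed values belong to the 3 libraries with the added digit, and the other 2 fed libraries lay within the fasted range. The log2 change was -1.67 (SE 0.52, adjusted p = 0.0841 by edgeR), and it was -2.59 (adjusted p = 0.00860) among libraries with the digit and 0.78 (adjusted p = 0.999) among those without it. Without fed replicate 1 or fed replicate 5 Lhx8 joined Tbx3 among the called members. Vax1, a homeodomain gene of the preoptic region, stood at 5.01, 4.45, 4.97, 5.70 and 4.12 CPM fed and at 3.32, 3.52, 3.79, 2.79 and 3.94 CPM fasted, and the groups did not overlap (log2 change -0.48, SE 0.16, adjusted p = 0.114). Lhx6 (-0.67), Dlx1 (-0.37) and Dlx6 (-0.35) had adjusted p-values of 0.280, 0.163 and 0.218. Among the caudal genes Foxa2, a forkhead gene of the floor plate and dopamine neurons, had the largest positive value (0.86, SE 0.32, adjusted p = 0.168), and Irx3 stood at 0.26 (adjusted p = 0.292). In fed S662D libraries Foxa2 held 1.01, 0.89, 0.39, 0.68 and 0.91 CPM and in fasted ones 1.19, 2.16, 0.80, 1.46 and 1.48 CPM. Some of the midbrain markers share neurons with Foxa2. The midbrain markers summed to 79.6 to 278 CPM in fed and 157 to 290 CPM in fasted S662D mice, and 0 of the 5 tested were called. Their part in these values was not tested.

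**Figure D2:**
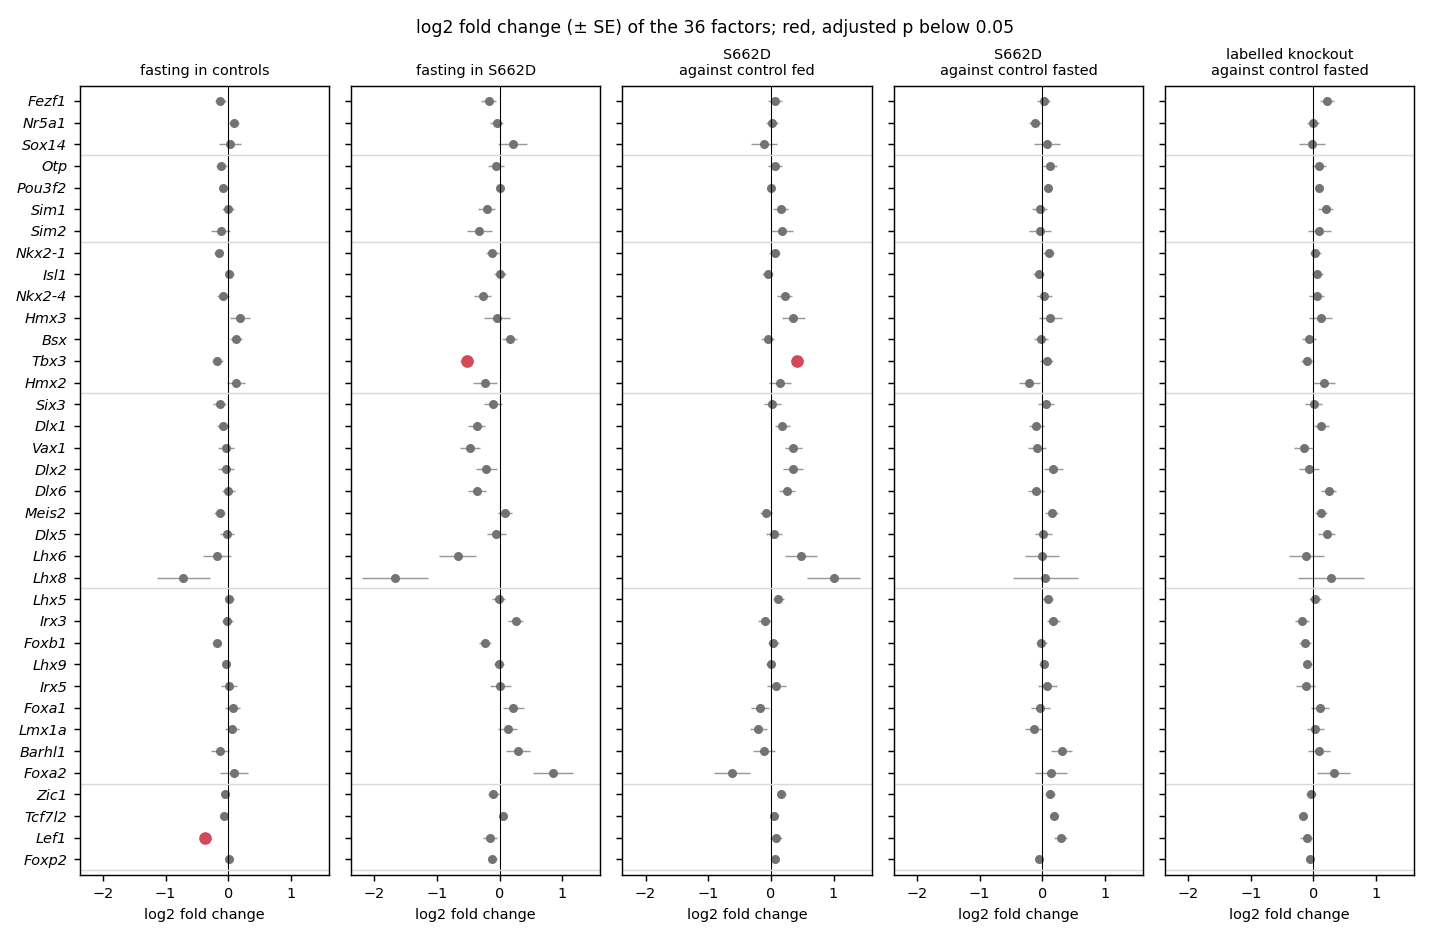
Log2 fold change of each factor with its standard error in 5 comparisons, one panel each, with genes grouped by place and red points for an adjusted p below 0.05. Red marks only Lef1 on fasting in controls (-0.36) and Tbx3 on fasting in S662D (-0.53) and in fed S662D against fed control mice (0.42), and the widest bars belong to Lhx8.

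Between genotypes, edgeR called 1 of 36 members in fed S662D against fed control mice (2.78%), against 4.69% of all genes. It was again Tbx3, and the comparison shares the fed S662D libraries with the fasting comparison above, so the 2 results are not independent. The 10 fed controls held 5.40 to 9.87 CPM of Tbx3 (median 7.58), and the 5 fed S662D mice 9.51 to 11.2 CPM (median 9.91). All 5 lay above the control median, and 1 control (replicate 6, 9.87 CPM) reached into their range. Tbx3 was higher by 0.42 on the log2 scale (SE 0.094, adjusted p = 0.00786 by edgeR), or 1.34-fold. The log2 value was 0.45 (adjusted p = 0.00508) with the S662D libraries that carry the digit and 0.38 (adjusted p = 1.00) with the 2 that do not, and the call was also lost against control replicates 6 to 10 alone (0.39, adjusted p = 0.169) and with the digit as a term in the fit (0.40, adjusted p = 0.281). Without fed S662D replicate 3 it was 0.38 (adjusted p = 0.0528) and without replicate 4 it was 0.42 (adjusted p = 0.0515). Tanycytes of the ventricle wall express Tbx3 too. The 6 ependyma and tanycyte markers summed to 60.4 to 81.6 CPM in fed controls and to 61.3 to 83.9 CPM in fed S662D mice, and to 55.8 to 66.7 CPM in fasted S662D mice. None of the 6 was called in these comparisons. Their part in the Tbx3 differences was not tested.

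The remaining members did not pass in fed mice. Over all 36, 26 log2 values were above 0 and 10 below, with a median of 0.070 against -0.0076 over all genes. An unadjusted p below 0.05 was found for 7 members, or 19.4% against 21.0% of all genes, and 6 of these were higher in S662D (Tbx3, Dlx2, Lhx8, Dlx6, Zic1 and Vax1) and 1 lower (Foxa2). In the forebrain group 8 of 9 values were positive, with a median of 0.25 and Lhx8 the largest (1.00, SE 0.43, adjusted p = 0.165 by edgeR). These values use the same fed S662D libraries as the fasting comparison in S662D, so they are not independent of it. Fed controls held 0.47 to 2.33 CPM of Lhx8 (median 1.10), so that the 3 S662D libraries with the digit lay above every fed control and the 2 without it at the low end of the control range. With the digit libraries alone 6 members were called (Dlx2, Hmx3, Lhx6, Lhx8, Tbx3 and Zic1), or 16.7% against 16.9% of all genes, and with the others alone 0 were, against 0.0854% of all genes. The log2 value of Lhx8 was then 1.56 (adjusted p = 0.00669) and -1.09 (adjusted p = 1.00). Against control replicates 1 to 5 alone 4 members were called (Dlx1, Dlx2, Tbx3 and Vax1), or 11.1% against 9.79% of all genes, and against replicates 6 to 10 alone 0 were, against 0.185%. These counts lie near the share of all genes and are not a result about the members. Midbrain markers summed to 87.6, 104 and 79.6 CPM in the 3 fed S662D libraries with the digit and to 278 and 144 CPM in the other 2. Their part in the values of Lhx8 was not tested.

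In fasted mice edgeR called 0 of 36 members between S662D and control, against 5.57% of all genes, while DESeq2 called 1 (Lef1). The share is that of edgeR, and none is given for DESeq2 here or below. An unadjusted p below 0.05 was found for 2 members, or 5.56% against 20.8% of all genes. The 2 were the beta-catenin partners Tcf7l2 and Lef1. Fasted S662D libraries held 190, 179, 190, 224 and 168 CPM of Tcf7l2, and fasted controls 144 to 190 CPM (median 168). All 5 S662D values lay above the control median and the groups overlapped (log2 difference 0.18, SE 0.061, adjusted p = 0.0713 by edgeR). Lef1 stood at 24.2, 22.7, 24.7, 30.3 and 22.1 CPM in fasted S662D mice, also above the control median of 20.0 CPM in 5 of 5 (log2 difference 0.29, SE 0.10, adjusted p = 0.0765). Leaving out fasted S662D replicate 5 brought both genes past the threshold, leaving out fasted control replicate 6 brought Lef1 past it, and leaving out fasted control replicate 10 brought Tcf7l2 past it. With the digit libraries alone 4 members were called (Barhl1, Lef1, Tcf7l2 and Zic1), or 11.1% against 17.1% of all genes. Thalamus markers summed to 1621 to 1863 CPM in fasted S662D mice and to 1513 to 1710 CPM in fasted controls, with 0 of 9 called. Their part in the values of Tcf7l2 and Lef1 was not tested.

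Between fasted mice labelled Per2 knockout and fasted controls edgeR called no member (0 of 36, against 0.0277% of all genes), and DESeq2 called 0. An unadjusted p below 0.05 was found for 1 member, or 2.78% against 6.07% of all genes. That member was Tcf7l2, at 138 to 160 CPM in the 5 labelled knockouts against 144 to 190 CPM in controls (log2 difference -0.16, SE 0.062, adjusted p = 0.759). The largest positive value was that of Foxa2 (0.32, adjusted p = 0.898) and the lowest that of Irx3 (-0.19). For the interaction of fasting and S662D edgeR likewise called 0 of 36 members, against 0% of all genes, and DESeq2 called 0 members. An unadjusted p below 0.05 was found there for Tbx3 (-0.35) and Vax1 (-0.44, SE 0.20, adjusted p = 0.771). These are 5.56% of the members, against 6.37% of all genes.

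**Figure D3:**
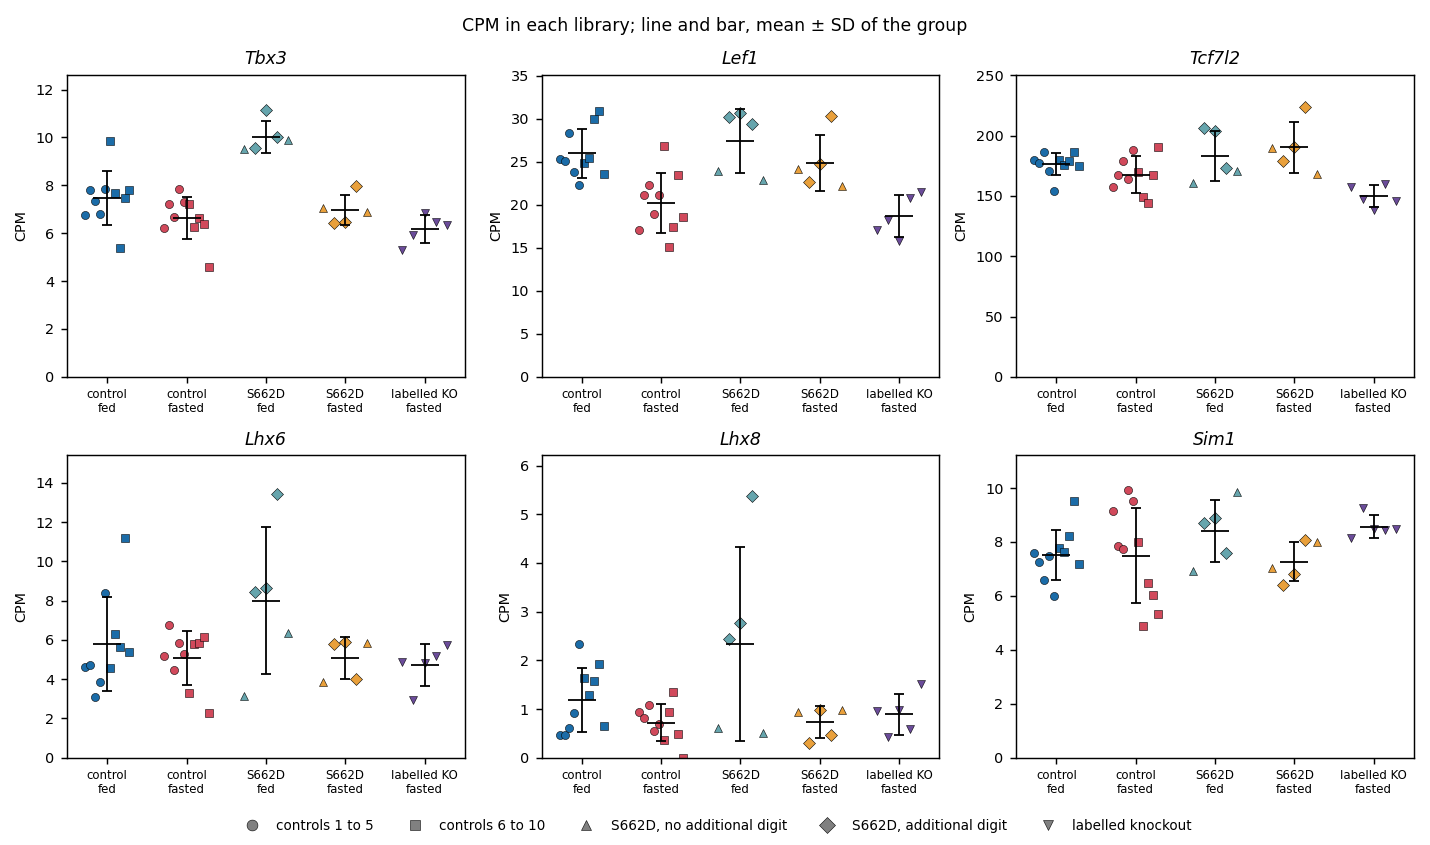
CPM of Tbx3, Lef1, Tcf7l2, Lhx6, Lhx8 and Sim1 in each of the 35 libraries by group, with a line and bar for mean ± SD and marker shapes for the library sets. The 5 fed S662D values of Tbx3 sit between 9.51 and 11.2 CPM, the highest Lhx6 and Lhx8 values belong to 1 fed S662D library with the added digit, and Sim1 of fasted controls splits by library set.

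Between the 2 sets of control libraries, edgeR called the paraventricular genes Sim1 and Otp in fasted mice, or 5.56% of the 36 members against 6.02% of all genes. Sim1, a basic helix-loop-helix factor without which the paraventricular nucleus does not form, stood at 9.16, 7.85, 7.76, 9.94 and 9.53 CPM in fasted control replicates 1 to 5 and at 8.00, 4.90, 6.48, 6.03 and 5.33 CPM in replicates 6 to 10. Only replicate 6 of the second set reached the range of the first. The log2 difference was -0.53 (adjusted p = 0.00743 by edgeR over all genes). Otp, which the same neurons need, was lower in the same set (-0.36, adjusted p = 0.0424), with means of 29.2 ± 3.1 and 22.8 ± 3.3 CPM (SD, n = 5 each). In fed controls 0 members and 0% of all genes were called by edgeR, with 13 members at an unadjusted p below 0.05, or 36.1% against 13.5% of all genes. The fasting response differed between the sets for 4 members, or 11.1% against 10.6% of all genes, so the count is at the background. Sim1 was 6.98 ± 0.68 CPM fed and 8.85 ± 0.99 fasted in replicates 1 to 5, and 8.06 ± 0.89 fed and 6.15 ± 1.20 fasted in replicates 6 to 10 (difference of the log2 responses -0.73, adjusted p = 0.00468). The other 3 were Otp (-0.60, adjusted p = 0.0133), Lmx1a (0.66, adjusted p = 0.0290) and Foxp2 (-0.31, adjusted p = 0.0284). Over all 20 control libraries the log2 changes of these 4 genes on fasting lay between -0.11 and 0.066, and none passed. The tests between sets were added after the data were seen.

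Whether the factors varied together from library to library was examined on log2 CPM after the mean of each group was removed, so that group differences do not enter. The 15 pairs examined were chosen with earlier results of these data known, so their p-values are a description and not an independent test. Of 15 pairs, 10 within and 5 between places, 5 had an adjusted permutation p below 0.05 (100000 shuffles within groups, two-sided, adjusted over the 15), and all 5 were pairs within a place. Dlx1 and Dlx2, neighbours on chromosome 2 that open the GABA programme, gave r = 0.79 (permutation p = 1e-05, the smallest the shuffles can give, adjusted 0.00015) and rho = 0.70 (adjusted permutation p = 0.0003). Without the 2 libraries farthest from the median of Dlx1 r was 0.66. It was 0.67 in control replicates 1 to 5, 0.84 in replicates 6 to 10 and 0.91 in the 6 S662D libraries with the digit. Here and below, no r was computed within the labelled knockouts or within the S662D libraries without the digit. Lhx6 and Lhx8, on chromosomes 2 and 3, gave r = 0.73 and rho = 0.67 (adjusted permutation p = 0.00015 and 0.0005), with 0.62 after leaving out 2 libraries and 0.56, 0.75 and 0.60 within the 3 sets. Tcf7l2 and Lef1, on chromosomes 19 and 3, gave r = 0.65 and rho = 0.70 (adjusted permutation p = 0.001 and 0.00045), with 0.60 after leaving out 2 libraries and 0.87, 0.48 and 0.84 within the sets. These 3 pairs kept an adjusted p below 0.05 under all 43 alternatives.

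The other 2 pairs had lower correlations. Dlx5 and Dlx6, neighbours on chromosome 6, gave r = 0.51 and rho = 0.51 (adjusted permutation p = 0.0183 and 0.0195), with 0.48 after leaving out 2 libraries. Within the sets their r was 0.65, 0.078 and 0.29, and with the means of the library sets removed as well it was 0.35 (adjusted permutation p = 0.232), which did not pass. Sim1 and Otp gave r = 0.47 (adjusted permutation p = 0.0474) and rho = 0.43 (adjusted permutation p = 0.0651), with 0.50 after leaving out 2 libraries. This call was kept in 17 of 43 alternatives and lost in 21 of the 35 that leave out 1 library. Within the sets r was 0.32, 0.19 and -0.62, and it was 0.11 with set means removed, so the relation does not hold within sets. Lhx8 and Tcf7l2 did the reverse: r was -0.20 over all libraries (permutation p = 0.315, adjusted 0.338) and rho -0.13 (adjusted permutation p = 0.537), but -0.62, -0.82 and -0.36 within the 3 sets and -0.59 with set means removed (adjusted permutation p = 0.0146). Nr5a1 and Fezf1, both of the ventromedial nucleus, gave r = 0.39 and rho = 0.39 (adjusted permutation p = 0.0691 and 0.0651), and passed with set means removed (r = 0.47, adjusted permutation p = 0.0297). Hmx2 and Hmx3, neighbours on chromosome 7, gave r = 0.18 and rho = 0.19 (adjusted permutation p = 0.338 and 0.353). The remaining pairs within places had r of -0.27 for Nr5a1 and Sox14, 0.35 for Isl1 and Tbx3 and -0.19 for Foxb1 and Barhl1. Between places Nr5a1 gave 0.24 with Foxb1 and 0.0098 with Lhx8, Sim1 gave 0.28 with Tcf7l2, and Foxb1 gave -0.33 with Tcf7l2. None of these 7 passed.

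All 630 pairs among the members are given as a description, since the genes share the same 35 libraries. A correlation above 0.5 was found for 60 pairs (9.52%), against 3.48% of all pairs of genes that averaged 1 CPM or more. The forebrain group stood together: its 36 pairs had a median r of 0.55 with a range of 0.36 to 0.88, and 27 of them were above 0.5. Dlx1 and Lhx6 gave the highest r of all members (0.88), followed by Dlx1 with Dlx2 (0.79) and Dlx2 with Six3 (0.78). The group of Tcf7l2, Lef1, Zic1 and Foxp2 had a median of 0.58, with Tcf7l2 and Foxp2 at 0.70. Genes of the other groups moved together less: the median was 0.036 in the ventromedial, 0.20 in the paraventricular, 0.18 in the tuberal and 0.14 in the caudal group, where the neighbours Irx3 and Irx5 gave 0.60. Some members went with another group than their own. Isl1 of the tuberal group gave 0.59 with Dlx1, 0.63 with Six3 and 0.59 with Lhx8, Otp gave 0.67 with Dlx2, and Lhx9 of the caudal group gave 0.67 with Zic1.

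Forebrain and caudal factors tended to opposite sides. Their 81 cross pairs had a median r of -0.26, none was above 0.5 and 8 were below -0.5, such as Dlx6 and Foxa1 (-0.55), Dlx1 and Irx3 (-0.55) and Dlx1 and Foxa2 (-0.54). Over all members 2.22% of 630 pairs were below -0.5, against 3.17% of all gene pairs. The lowest values of all members were those of Isl1 and Irx3 (-0.69) and Fezf1 and Irx5 (-0.64). The first principal component of the 36 centred genes held 26.1% of their variance, with Dlx1 (0.28), Dlx2 (0.27) and Six3 (0.26) at one end and Irx3 (-0.22), Irx5 (-0.18) and Foxa2 (-0.18) at the other. Single libraries stood at the extremes of many members at once. Fed S662D replicate 4 held the highest CPM of the 35 libraries for 8 members: Sim2, Hmx3, Dlx1, Dlx2, Dlx6, Lhx6, Lhx8 and Six3. It had 37.2 CPM of Dlx1, 13.4 CPM of Lhx6 and 5.38 CPM of Lhx8, and the lowest midbrain sum (79.6 CPM). Fasted control replicate 10 held the lowest CPM for 6 members: Otp, Tbx3, Isl1, Dlx1, Lhx6 and Lhx8. It had 16.6 CPM of Dlx1 and 2.26 CPM of Lhx6, and 0 counts of Lhx8 in 18533235, where 3 counts, the limit that a count of 0 allows, would be 0.162 CPM.

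**Figure D4:**
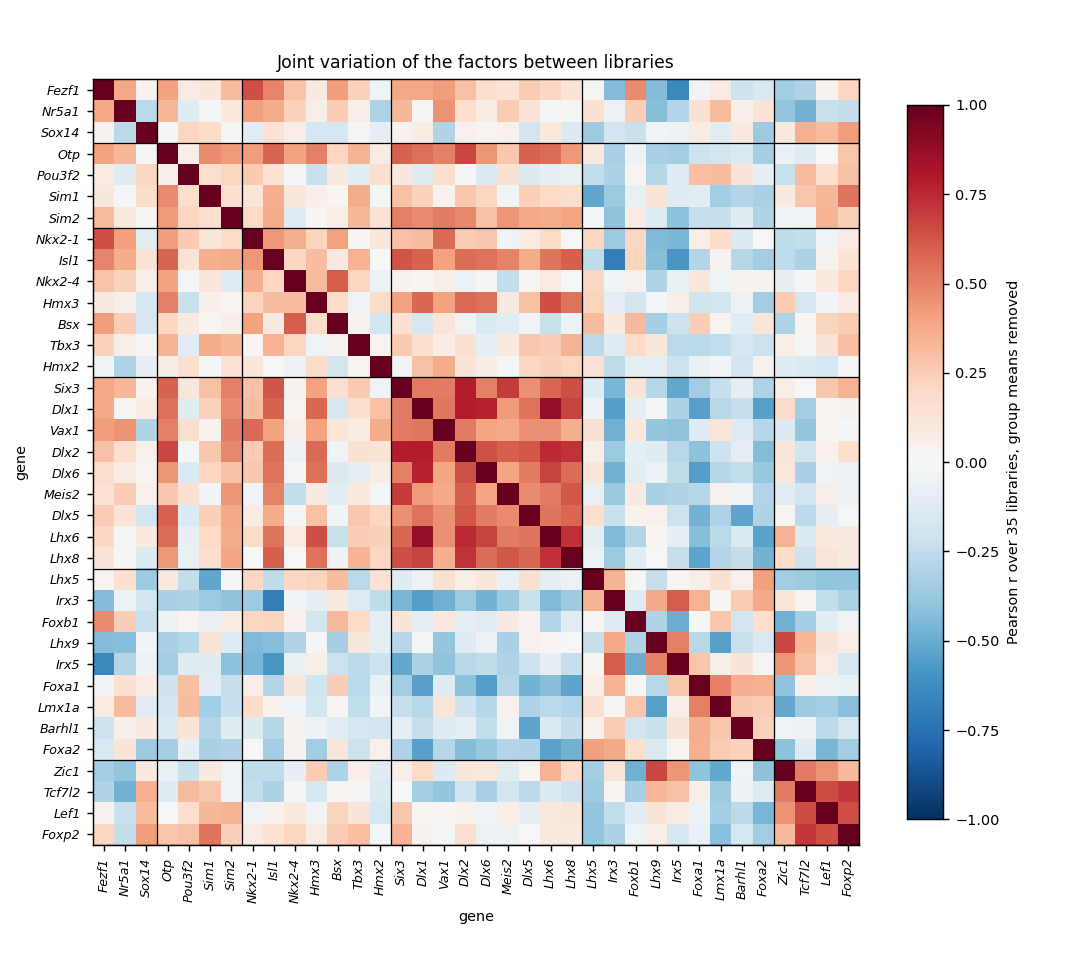
Pearson r between every 2 of the 36 factors over 35 libraries, group means removed, on a colour scale from -1 to 1 with black lines between the 6 groups. The forebrain block (median 0.55) and the block of Tcf7l2, Lef1, Zic1 and Foxp2 (median 0.58) are red, and the forebrain against caudal block (median -0.26) is mostly blue.

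The joint variation was set beside markers of neighbouring tissue for 5 members, 1 for each of 5 places. Over 50 relations of these members with 10 summed marker lists, 4 had an adjusted permutation p below 0.05. These members and lists were also chosen with earlier results of these data known. Each member and each sum come from the same library and are scaled to the same total. Tcf7l2 rose with the sum of the thalamus markers (r = 0.58, rho = 0.54, adjusted permutation p = 0.0229 and 0.0425), with r of 0.59 after leaving out 2 libraries and 0.64, 0.58 and 0.44 within the 3 library sets. It went against the sum of the hypothalamic peptides (r = -0.55, rho = -0.50, adjusted permutation p = 0.0229 and 0.0575), with -0.55 after leaving out 2 libraries and -0.66, -0.60 and -0.39 within the sets. Lhx8 went against the midbrain sum (r = -0.58, rho = -0.57, adjusted permutation p = 0.0229 and 0.0425), with -0.63 after leaving out 2 libraries. That relation was -0.058 in control replicates 1 to 5, -0.50 in replicates 6 to 10 and -0.79 in the S662D libraries with the digit, so it does not hold in the first set. Sim1 went against the oligodendrocyte sum (r = -0.47, rho = -0.51, adjusted permutation p = 0.0229 and 0.0425, r = -0.43 after leaving out 2 libraries), with -0.12, -0.46 and 0.46 within the sets, so it does not hold in each of them. For Nr5a1 and Foxb1 0 of the 10 lists passed.

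**Figure D5:**
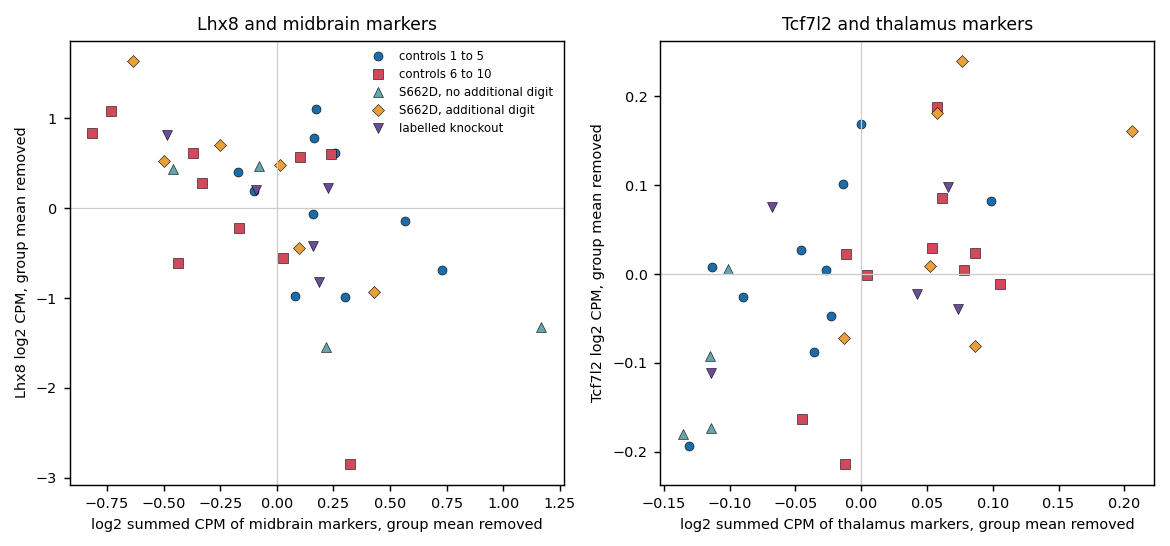
Lhx8 against the summed midbrain markers (left) and Tcf7l2 against the summed thalamus markers (right), both as log2 CPM with group means removed, one point per library and marker shapes for library sets. The left cloud falls (r = -0.58), with the lowest point for the fasted control library with 0 Lhx8 counts, and the right cloud rises (r = 0.58).

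The genes most like a member were listed by r over the same centred values among the 15478 genes that averaged 1 CPM or more. For Lhx8 they included Irs4 (0.74) and the members Lhx6 (0.73) and Dlx2 (0.73). For Tcf7l2 they included Rbm41 (0.80), Kcna2 (0.74), Ttll7 (0.73) and Kitl (0.73). For Sim1 they were Ralgps2 (0.72), Strn3 (0.72), Fbn2 (0.71), Tram1 (0.70) and R3hdm1 (0.68). Nr5a1 and Foxb1 had weaker neighbours, with Trit1 (0.60) nearest to Nr5a1 and Gbp6 (0.62) and Tbc1d7 (0.62) nearest to Foxb1.

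A further 30 regional factors outside the 36 were counted for comparison. On fasting in controls 3 of the 30 were called, against 3.88% of all genes. All 3 were lower: Nkx2-2 (-0.50, adjusted p = 9.05e-06 by edgeR), Nkx6-2 (-0.41, adjusted p = 0.000109) and Nr2f1 (-0.25, adjusted p = 0.00279). Nkx2-2 stood at 11.2 ± 0.9 CPM fed and 7.91 ± 1.28 CPM fasted, and Nkx6-2, a gene of oligodendrocytes as well as of neural progenitors, at 46.8 ± 3.9 and 35.3 ± 5.2 CPM (SD, n = 10 each). On fasting in S662D 2 of 30 were lower, Nkx6-2 (-0.46) and Nr2f1 (-0.28), against 2.64% of all genes called. In fed mice 2 of 30 were higher in S662D, Sp9 (0.49, adjusted p = 0.00933), a zinc finger gene of the Dlx lineage, and Nkx6-2 (0.27), against 4.69% of all genes called. In fasted mice 1 of 30 was higher in S662D, Nkx2-2 (0.29, adjusted p = 0.0444), against 5.57% of all genes called. In the labelled knockouts 0 of 30 were called, against 0.0277% of all genes. These counts of 1 to 3 of 30 were not tested against the shares of all genes and are not a result about the list. Of the peptide genes that mark the nuclei of these factors, 2 of 17 were called, both on fasting in controls (against 3.88% of all genes) and both higher: Agrp (0.61, adjusted p = 0.0196) and Npy (0.39, adjusted p = 0.00263), hunger peptides of the arcuate neurons that need Bsx. Bsx itself stood at 6.17 ± 0.96 CPM fed and 6.73 ± 0.80 CPM fasted in controls (SD, n = 10 each) and did not pass. In the marker lists of other tissue, called genes included Rgs16 (1 of 9 thalamus genes) and Rgs9 in fasted S662D against control (-0.26, 1 of 8 striatal genes). Mobp, an oligodendrocyte gene, was higher on fasting in controls (0.15) and in S662D (0.40) and lower in fed S662D than in fed control mice (-0.21). None of the 7 cortical, 5 midbrain, 4 pituitary and 6 choroid plexus genes tested was called in any of the 6 comparisons.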

How the data were processed

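The data are 35 polyA RNA libraries of mouse hypothalamus. The authors deposited raw counts of fragments per gene, 1 table per library. Per the file headers these came from featureCounts 2.0.1 with the GENCODE vM12 annotation of mm10, with fragments totalled per gene name, multi-mapping reads counted at each of their alignments, and no strand option. Alignment used STAR 2.7.10b per the submitters' processing notes. Counting every alignment inflates genes with near copies, and counting without strand adds reads of overlapping antisense genes.

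Groups were taken from the sample titles. No 2 libraries agreed within sampling noise (lowest chi-square per degree of freedom 2.44), and each counted as 1 replicate. The labels do not tie libraries to separate mice, so p-values measure only the spread between libraries, which may be technical. Genes were kept with edgeR's filterByExpr (minimum count 10), scaled with TMM and fitted in 1 quasi-likelihood model of 35 libraries with a mean per group (edgeR 4.0.16, R 4.3.3), with Benjamini-Hochberg adjustment over 18063 genes. Called means an adjusted p below 0.05. CPM divides by the TMM-scaled library size. Tested on simulated data for fasting in controls (17749 genes), the fit recovered 87.8% of genes changed by 0.5 and 99.0% of those changed by 1 on the log2 scale, and 6.63% of its calls were false. Every simulated gene had a biological coefficient of variation of 0.09, below the members' median of 0.130. Smaller groups and library sets were not simulated, so these shares do not give the recovery for the members. Correlations used log2 CPM (prior count 2) with group means removed and 100000 shuffles within groups. Depths of 17959586 to 37027342 counts leave the rarest members, such as Lhx8, with few counts, and limits from 0 counts cover counting error only.

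The members, gene lists and pairs were chosen with earlier results of these data known. Values are given in full for members called in any comparison and for members of the 15 pairs, and for the other members by level, range and count, while genes of marker lists are named where called or highest. A few genes picked by these rules are left out of the text. The leaving out of libraries high in choroid plexus genes and the tests between control sets were added after the data were seen. Alternatives were other scaling, no filter, DESeq2 1.42.0, a replicate block, library sets, the groups compared alone and each library left out. Promoters are RefSeq's. Gene overlaps come from the exons of the authors' annotation (GENCODE vM12).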

Additional observations from a re-analysis of the deposited data

Results flagged for a closer look

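Of 180 groups of values (36 members in 5 groups) examined for a single library far from the rest, 7 held one, and chance gives about 1 in 20. Nr5a1 reached 8.50 CPM in fed control replicate 1, where the next was 7.17. Tcf7l2 fell to 153.8 CPM in fed control replicate 5, with the next at 170.3. In fasted controls replicate 10 was lowest for Tbx3 (4.57 CPM, next 6.22) and for Dlx1 (16.6 CPM, next 22.2), and replicate 7 highest for Hmx2 (2.76 CPM, next 2.04). Sim1 reached 9.28 CPM in labelled knockout replicate 2 (next 8.47), and Lhx5 reached 13.1 CPM in fasted S662D replicate 2 (next 10.5).

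The fasting response differed between control replicates 6 to 10 and 1 to 5 for 4 members by edgeR's test of that difference: Sim1 (-0.73 on the log2 scale), Otp (-0.60), Foxp2 (-0.31) and Lmx1a (0.66). These are 11.1% of the members, against 10.6% of all genes.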

How the results depend on the processing

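Of 220 alternative counts of called members or correlated pairs, 195 stayed within 1.5 times the reported one and 25 did not. Of 7017 alternative values of single members and pairs, 6945 kept direction and side of the threshold, 35 lost it, 36 gained it and 1 turned, the response of Sim1 to fasting in controls (0.34, adjusted p = 0.0399, with replicates 1 to 5 alone). Tbx3 stayed called in 21 of 22 alternatives on fasting in S662D and in 22 of 27 in fed S662D, Lef1 in 31 of 32 on fasting in controls. The causes were not tested.

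With control replicates 1 to 5 alone the called members numbered 2 on fasting in controls, 4 in fed and 1 in fasted S662D against control, and 2 in the interaction (Sim1 and Tbx3), while 7.4%, 9.79%, 9.45% and 2.73% of all genes were called. With replicates 6 to 10 alone Otp was called on fasting in controls in place of Lef1, the called members numbered 0 in fed S662D and 1 in the labelled knockouts (Sim1), with 1.71%, 0.185% and 0.556% of all genes, and 3 pairs stayed correlated. With the S662D libraries carrying the digit they numbered 2 on fasting, 6 in fed and 4 in fasted S662D against control, with 3.71%, 16.9% and 17.1% of all genes. With set means removed Nr5a1 with Fezf1 and Lhx8 with Tcf7l2 passed and Sim1 with Otp and Dlx5 with Dlx6 did not. With only the S662D libraries without the digit, the called members numbered 0 on fasting and 0 in fed S662D, where 2 libraries a group limit the fit. In that fed comparison 0.0854% of all genes were called. The digit as a term gave 0 in fed S662D. In fasted S662D DESeq2 gave 1 and leaving out libraries high in choroid plexus genes gave 1 (Tcf7l2). Leaving out 1 library gave 1 to 2 members on fasting in S662D, 0 to 2 in fed and 0 to 2 in fasted S662D against control. Counts with the digit term, DESeq2, choroid plexus libraries left out or 1 library left out have no all-gene share beside them. They are not read as a result about the members.

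The labels do not tie replicate numbers to mice, and the numbers were not taken as pairs: same-numbered libraries correlated above 0.1 in 0 of 10 pairs between fed and fasted controls, 2 of 5 between fed and fasted S662D, 3 of 5 between fed and 1 of 5 between fasted controls and S662D, and 0 of 5 with the labelled knockouts (-0.19 to 0.24 in all). In fed controls and S662D 3 of 5 correlated best with their own number. The replicate block gave 1 called member in fasted S662D against control (Lef1) in place of 0, and the reported number of called members in the other 5 comparisons. No all-gene share is given for the block, so these counts are not a result about the members.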
